A study of Mus musculus with 12 samples.

Results

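The genes described here are 10 members of the NF-kB system, the 5 genes that encode its subunits (Nfkb1, Nfkb2, Rela, Relb and Rel) and 5 genes whose products hold it back or adjust it (Nfkbia, Nfkbiz, Tnfaip3, Bcl3 and Birc3). They were taken by name from the 55416 gene identifiers of the deposited tables, and all 10 had counts in both tissues. The choice was made with earlier results of these data known, so it was not blind to their values. RNA had been sequenced from 2 tissues of male BALB/c mice labelled as 7 weeks old. The cachectic group held 3 mice that had been given 2000000 cells of CT-26, a colon carcinoma line from the same strain, under the skin of the abdomen, and whose tissues were taken on day 25. The normal group held 3 mice without tumour cells, for which the labels state no collection day. Each mouse gave its gastrocnemius, a calf muscle, and its hypothalamus, the brain region that governs feeding and energy use, so that 12 libraries fell into 4 groups of 3. Cachexia is the wasting of muscle and fat that accompanies some tumours, and the model rests on 1 transplanted tumour line. The question put to each tissue was which of the 10 mRNAs differed between cachectic and normal mice, and by how much.

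NF-kB is a family of transcription factors that work as pairs of subunits. In the canonical route, receptors for tumour necrosis factor, interleukin 1 and microbial products activate a kinase complex that marks the inhibitor IkB alpha for destruction, which frees pairs such as RelA with the Nfkb1 product to enter the nucleus. In the noncanonical route, the kinase encoded by Map3k14 triggers processing of the Nfkb2 product, the usual partner of RelB. Many genes that NF-kB switches on encode its own subunits and inhibitors, which makes their mRNAs common readouts of feedback; in skeletal muscle the system has long been studied in wasting, and in the hypothalamus in the response to inflammation.

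The libraries held 26015741 to 42771331 expected counts in the gastrocnemius and 27195316 to 52535761 in the hypothalamus. Expected counts are the estimated numbers of fragments per gene given by the program RSEM, and the values below are CPM, counts set to a common library size after scaling with edgeR's TMM factors, which align the bulk of the genes. The tissue labels matched their markers, since 6 skeletal muscle fibre genes summed to 84451 CPM or more in every gastrocnemius library and to 51.2 CPM or less in every hypothalamus library, while 6 hypothalamic neuropeptide genes summed to 1240 CPM or more in the hypothalamus and 0.911 CPM or less in the gastrocnemius. A gene was called where edgeR's quasi-likelihood test gave a Benjamini-Hochberg adjusted p below 0.05 over all genes tested in that tissue. On that rule 38.0% of 14265 genes were called in the gastrocnemius, 19.6% higher and 18.3% lower in cachectic mice, and 8.77% of 17961 genes in the hypothalamus, 3.94% higher and 4.83% lower. With library totals in place of TMM, 70.4% of the gastrocnemius calls were higher in cachectic mice, and with TPM 81.5%, against 51.7% with TMM, so the split of that tissue's calls depended on scaling. The median log2 change of all gastrocnemius genes moved accordingly by 0.20 and 0.28, from near 0.

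Promoter sequence is shown for Nfkbia, Nfkb2, Rel and Tnfaip3 because these 4 members carried a match to a narrow form of the NF-kB binding sequence, and because Nfkbia and Nfkb2 rose in cachectic muscle while Rel and Tnfaip3 did not pass the test there. The sequences are the 250 bases before a start annotated by RefSeq on build GRCm38.p6, written 5′ to 3′ on the gene's strand, with matches in capitals. The motifs searched were GGGNNTTTCC and GGGNNTTCCC, on both strands, where N is any base.
Nfkbia, chr12:55492648-55492897, minus strand: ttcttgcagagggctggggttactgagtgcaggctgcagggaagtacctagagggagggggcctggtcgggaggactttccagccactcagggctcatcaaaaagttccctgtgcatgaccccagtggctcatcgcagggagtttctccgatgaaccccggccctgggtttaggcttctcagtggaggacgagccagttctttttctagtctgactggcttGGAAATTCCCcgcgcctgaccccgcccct
Nfkb2, first start, chr19:46304487-46304736, plus strand: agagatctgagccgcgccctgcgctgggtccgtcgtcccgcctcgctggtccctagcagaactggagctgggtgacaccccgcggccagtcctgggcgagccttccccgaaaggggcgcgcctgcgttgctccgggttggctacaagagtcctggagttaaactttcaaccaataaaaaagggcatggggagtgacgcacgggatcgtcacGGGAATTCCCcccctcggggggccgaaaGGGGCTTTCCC
Rel, chr11:23770970-23771219, minus strand: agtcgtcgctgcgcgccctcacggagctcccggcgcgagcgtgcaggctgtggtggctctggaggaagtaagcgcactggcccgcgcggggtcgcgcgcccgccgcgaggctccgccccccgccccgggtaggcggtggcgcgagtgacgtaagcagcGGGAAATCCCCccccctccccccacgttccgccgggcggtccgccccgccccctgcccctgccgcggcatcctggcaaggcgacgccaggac
Tnfaip3, first start, chr10:19015411-19015660, minus strand: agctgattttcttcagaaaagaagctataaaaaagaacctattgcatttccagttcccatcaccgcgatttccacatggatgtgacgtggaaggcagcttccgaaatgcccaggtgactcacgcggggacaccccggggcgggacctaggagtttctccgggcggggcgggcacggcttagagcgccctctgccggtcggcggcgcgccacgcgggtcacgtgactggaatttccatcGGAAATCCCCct
The gene spans given below are those of GENCODE, whose starts differ: the Nfkb2 sequence lies wholly and the Tnfaip3 sequence almost wholly inside that gene's GENCODE span. In Nfkbia the match lay 29 to 20 bases before the start, and in Tnfaip3 12 to 3 bases before it. Nfkb2 held matches at 2 places, one 39 to 30 bases before the start that reads the same on both strands, and one where both motif forms overlap in the last 11 bases. In Rel both forms also overlapped, 92 to 82 bases before the start. RefSeq promoters were present for 7 of the 10 members, with 10 starts among them, and 5 of these 10 starts, from the 4 members shown, held a match. The last listed start of Nfkb2 held GGGACTTTCC, while the starts of Rela, Bcl3 and Birc3, the second start of Nfkb2 and the second start of Tnfaip3 held no narrow match. Of 32851 mouse promoters of the same length, 1.41% held GGGNNTTTCC, 1.53% held GGGNNTTCCC and 2.82% held either. The looser form GGGNNNNNCC was present in all 10 starts, against 45.8% of all promoters. A match describes letters only and does not show binding, and the members with a narrow match included both genes that rose and genes that did not pass the test.

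In the gastrocnemius, 8 of the 10 members rose in cachectic mice, 0 fell and 2 did not pass the test, against 19.6% of all genes called higher. The same 8 had every cachectic library above every normal library, a pattern that 26.3% of all genes tested there showed (51.7% had groups that did not overlap, in either direction). The risers were Nfkbiz, Bcl3, Nfkbia, Birc3, Nfkb2, Rela, Relb and Nfkb1, in order of the size of the change, which ran from 2.82-fold to 1.28-fold. The median log2 change of the 10 was 0.75, against a median of 0.00 for all genes tested. In tissue RNA such as this, a larger share of cells that express a gene and more of its RNA per cell cannot be told apart. Mitochondrial genes took 8.26%, 10.1% and 11.1% of counts in cachectic gastrocnemius, against 15.2%, 13.5% and 19.7% in normal gastrocnemius, without overlap, and 7.64% to 8.28% in cachectic hypothalamus, overlapping the 8.22% to 8.87% of normal hypothalamus. The part of that difference in the changes below was not tested.

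**Figure D1:**
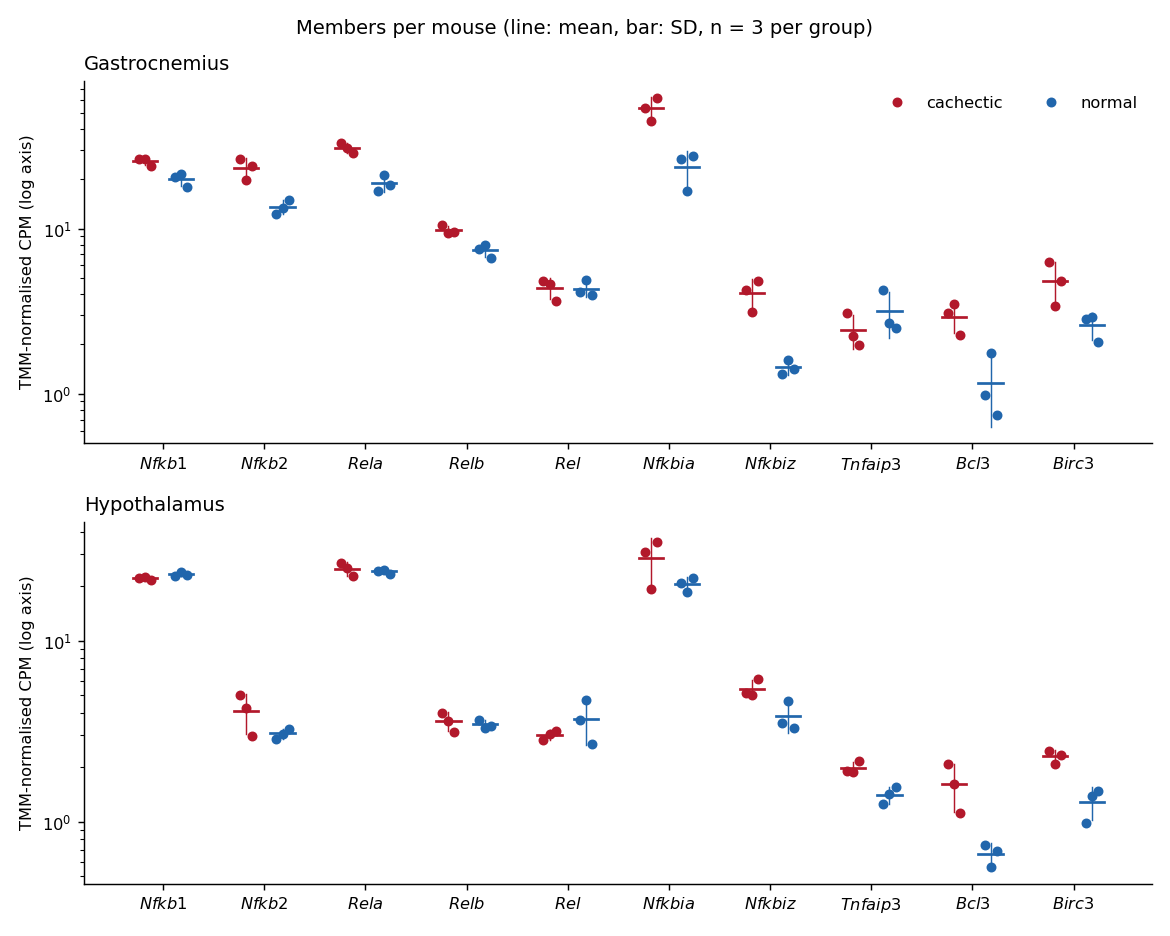
TMM-scaled CPM of the 10 members in each of the 12 libraries, on a log axis, with cachectic mice left of normal mice in each tissue a horizontal line at the group mean and a vertical bar of 1 SD. In the gastrocnemius the cachectic points of Nfkbiz, 3.14 to 4.81 CPM, lie above the normal points, 1.31 to 1.61 CPM, whereas those of Rel and Tnfaip3 overlap.

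The subunits of the canonical pair, Rela and Nfkb1, both rose. Rela (chromosome 19, 5637483 to 5648130, plus strand, GRCm38) encodes the subunit with the strong activation domain of the canonical pair. It had 33.3, 30.9 and 28.8 CPM in cachectic gastrocnemius, against 16.8, 21.1 and 18.5 CPM in normal gastrocnemius. The groups were well apart, with a log2 change of 0.72 ± 0.13 (SE, n = 3 each; adjusted p = 0.00354). Nfkb1 (chromosome 3, 135584655 to 135691547, minus strand) encodes the precursor of RelA's usual partner. Its libraries held 26.4, 26.3 and 24.0 CPM in cachectic mice and 20.7, 21.3 and 17.9 CPM in normal mice. The groups did not overlap, but the rise was the smallest of the 8, with a log2 change of 0.36 ± 0.12 (SE, n = 3 each; adjusted p = 0.0427). The Nfkb1 call was lost with DESeq2 (adjusted p = 0.0561), without the filter on low counts (0.0726), and on leaving out any one of cachectic mice 1 and 2 and normal mice 1, 2 and 3 (0.0842 to 0.147).

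The subunits of the noncanonical route both rose. Nfkb2 (chromosome 19, 46304320 to 46312385, plus strand) had 26.4, 19.7 and 24.0 CPM in cachectic gastrocnemius, against 12.3, 13.4 and 14.9 CPM in normal gastrocnemius. Its log2 change was 0.79 ± 0.15 (SE, n = 3 each; adjusted p = 0.00411). The end of Nfkb2 overlaps Psd, a gene on the opposite strand with 33853 counts over the 12 libraries against 4375 for Nfkb2. AC114539.1, also on the opposite strand, overlaps Nfkb2 as well and had 305 counts. The strand setting of the counting was not given in the sources used here, so reads where these genes overlap cannot be told apart. This limit holds for Nfkb2 in both tissues, and the counts were not split by tissue. Relb (chromosome 7, 19606217 to 19629438, minus strand) encodes the subunit that pairs with the processed Nfkb2 product. It had 10.5, 9.49 and 9.56 CPM in cachectic mice, against 7.56, 7.95 and 6.65 CPM in normal mice. The groups did not overlap and the log2 change was 0.42 ± 0.13 (SE, n = 3 each; adjusted p = 0.0387). As for Nfkb1 the call was narrow. It was lost with DESeq2 (adjusted p = 0.0530), without the filter on low counts (0.0599) and with the replicate number as a block (0.0503). It was also lost on leaving out cachectic mouse 1 or 2 or any normal mouse (0.0534 to 0.125).

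Rel was the subunit without a difference past the threshold. Rel (chromosome 11, 23736847 to 23770970, minus strand) encodes c-Rel, the subunit best known from lymphocytes. It had 4.85, 4.61 and 3.65 CPM in cachectic gastrocnemius and 4.16, 4.87 and 3.98 CPM in normal gastrocnemius. The groups overlapped throughout, with a log2 change of 0.01 ± 0.18 (SE, n = 3 each; adjusted p = 0.966), and the sign of that value turned when single mice were left out. Markers of lymphocytes were near the floor of detection in all 12 libraries, summing over 8 genes to at most 1.07 CPM.

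Among the members, the IkB genes Nfkbia and Nfkbiz rose under every alternative. Nfkbia (chromosome 12, 55489410 to 55492647, minus strand) encodes IkB alpha, the inhibitor that is destroyed when the canonical route fires and then made again. It had 53.8, 45.0 and 62.3 CPM in cachectic gastrocnemius, against 26.4, 16.9 and 27.5 CPM in normal gastrocnemius. The lowest cachectic library stood well above the highest normal one, and the log2 change was 1.19 ± 0.21 (SE, n = 3 each; adjusted p = 0.00327). Nfkbiz (chromosome 16, 55811375 to 55838899, minus strand) encodes IkB zeta, a nuclear member that works with NF-kB on a set of secondary genes. It had 4.28, 3.14 and 4.81 CPM in cachectic mice and 1.31, 1.61 and 1.42 CPM in normal mice. This was the largest change among the members, at log2 1.49 ± 0.22 (SE, n = 3 each; adjusted p = 0.00177), a rise of 2.82-fold.

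Bcl3, another nuclear IkB protein, rose at a low level. Bcl3 (chromosome 7, 19808462 to 19822770, minus strand) binds pairs of the Nfkb1 and Nfkb2 products and can turn them into activators. It had 3.07, 3.48 and 2.27 CPM in cachectic gastrocnemius, against 0.986, 1.76 and 0.746 CPM in normal gastrocnemius. The log2 change of 1.33 ± 0.33 (SE, n = 3 each; adjusted p = 0.0149) had the widest error of the 8. Leaving out normal mouse 1 ended the call, with a log2 change of 1.22 and an adjusted p of 0.0618.

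Of the ubiquitin enzymes among the inhibitors, Birc3 rose and Tnfaip3 did not pass the test. Birc3 (chromosome 9, 7848699 to 7873186, minus strand) encodes a ubiquitin ligase of the tumour necrosis factor receptor complex that also limits the noncanonical kinase. It had 6.31, 3.41 and 4.81 CPM in cachectic gastrocnemius, against 2.85, 2.93 and 2.06 CPM in normal gastrocnemius. The groups did not overlap, cachectic mouse 1 was highest and mouse 2 close to the normal range, and the log2 change was 0.90 ± 0.26 (SE, n = 3 each; adjusted p = 0.0256). Without cachectic mouse 1 the log2 change was 0.66 and the call was lost (adjusted p = 0.0841), as it was without cachectic mouse 3 or any normal mouse (0.0516 to 0.0826). Tnfaip3 (chromosome 10, 19000910 to 19015657, minus strand) encodes the ubiquitin-editing enzyme that shuts the canonical route down. It had 3.07, 2.25 and 1.97 CPM in cachectic mice and 4.27, 2.68 and 2.52 CPM in normal mice. The groups overlapped, with a log2 change of -0.37 ± 0.27 (SE, n = 3 each; adjusted p = 0.317), and no call was made under any of 13 alternatives.

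**Figure D2:**
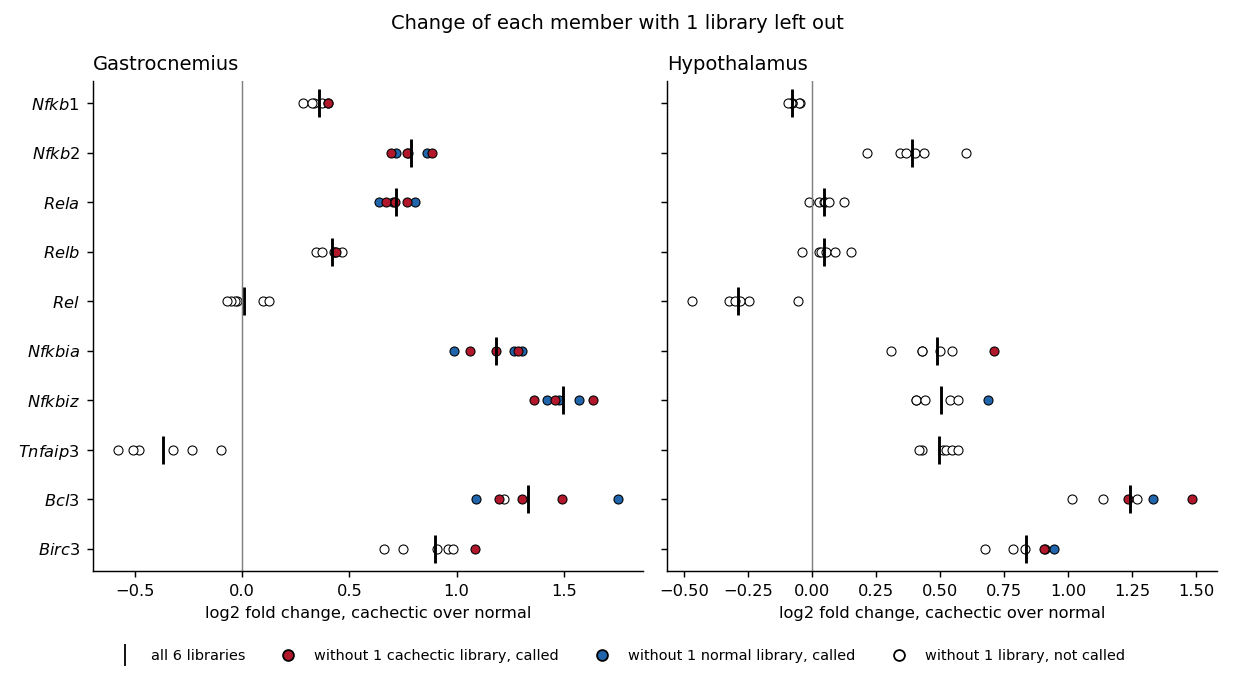
Log2 change of each member, cachectic over normal, with all libraries and with each library left out in turn, filled where the adjusted p was below 0.05 and with a vertical line for all 6 libraries. Nfkb2, Rela, Nfkbia and Nfkbiz stay called in the gastrocnemius whichever mouse is left out, and Nfkb1, Relb and Birc3 are called in some of the settings.

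Nfkb2, Rela, Nfkbia and Nfkbiz were called in the gastrocnemius under all 13 alternatives. Bcl3 was called under 12, Birc3 under 8, Nfkb1 under 6 and Relb under 5. All of these kept a positive log2 change throughout. On the log2(TPM + 0.5) scale the log2 changes of Nfkb1 and Rela were 0.79 and 1.06. With library totals and with TPM, however, the median log2 change of all genes was 0.20 and 0.28, against -0.0015 with TMM. Positive values on those 2 scales are therefore no separate test of a rise. Both scales are among the alternatives that kept the calls of Nfkb1 and Relb.

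In the hypothalamus Bcl3 and Birc3 rose, 0 members fell and 8 did not pass the test, against 3.94% of all genes called higher there. At an unadjusted p below 0.05 there were 5 members, all higher, and 8 of 10 log2 changes were positive, with a median of 0.44 against 0.00 for all genes. Cachectic libraries lay above every normal library for 4 members, against 14.7% of all genes, and below every normal library for 1 member, against 15.6% (30.3% in either direction).

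Bcl3 had the largest log2 change of the members in this tissue. It had 2.08, 1.62 and 1.12 CPM in cachectic hypothalamus, from 58, 45 and 59 counts, against 0.746, 0.561 and 0.690 CPM in normal hypothalamus, from 22, 19 and 19 counts. The groups did not overlap in CPM and the log2 change was 1.24 ± 0.28 (SE, n = 3 each, adjusted p = 0.0225). In TPM they overlapped, at 1.67, 1.17 and 0.85 in cachectic mice and 0.91, 0.5 and 0.53 in normal mice. Only 1.13% of the genes tested in the hypothalamus changed by as much in either direction. The call was lost without cachectic mouse 1 (log2 change 1.02, adjusted p = 0.0807), without normal mouse 2 (0.0903) or 3 (0.0549), in a single fit of all 12 libraries (0.126) and on TPM (0.145).

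Birc3 had 2.47, 2.09 and 2.33 CPM in cachectic hypothalamus, against 0.983, 1.39 and 1.49 CPM in normal hypothalamus. Cachectic and normal libraries did not overlap in CPM, with a log2 change of 0.83 ± 0.20 (SE, n = 3 each, adjusted p = 0.0286). In TPM they overlapped, at 1.2, 0.97 and 1.32 in cachectic mice and 0.43, 1.04 and 0.73 in normal mice. The Birc3 call was lost without cachectic mouse 1 or 3 or normal mouse 1 or 2 (0.0675 to 0.0948). It was also lost in the single fit of all 12 libraries (0.183), on TPM (0.203) and with the replicate number as a block.

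The inhibitors Nfkbia, Nfkbiz and Tnfaip3 had similar positive values in the hypothalamus, none of which passed the test. Nfkbiz had 5.12, 5.01 and 6.12 CPM in cachectic hypothalamus and 3.52, 4.67 and 3.30 CPM in normal hypothalamus, with a log2 change of 0.50 ± 0.16 (SE, n = 3 each; adjusted p = 0.0780). Tnfaip3 had 1.90, 1.87 and 2.15 CPM in cachectic mice and 1.25, 1.42 and 1.56 CPM in normal mice, with a log2 change of 0.49 ± 0.18 (SE, n = 3 each; adjusted p = 0.116). For both genes the cachectic libraries were all above the normal ones. Nfkbia had 31.0, 19.2 and 35.2 CPM in cachectic mice and 20.8, 18.5 and 22.2 CPM in normal mice, with a log2 change of 0.49 ± 0.18 (SE, n = 3 each; adjusted p = 0.114). Cachectic mouse 2 lay inside the normal range, and without it the log2 change was 0.71 and passed the test (adjusted p = 0.00187); Nfkbiz passed without normal mouse 2 (0.0456). Both also passed without the filter on low counts (1.46e-05 for Nfkbia and 0.0175 for Nfkbiz). The same mouse had the lowest cachectic value of Nfkbia in the gastrocnemius.

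The 5 subunits gave no call in the hypothalamus. Nfkb1 had 22.1, 22.5 and 21.6 CPM in cachectic hypothalamus and 22.8, 23.9 and 23.2 CPM in normal hypothalamus, and was the member whose cachectic libraries were all below the normal ones. Its log2 change was -0.08 ± 0.06 (SE, n = 3 each; adjusted p = 0.485). Rela, at 26.8, 25.3 and 22.6 CPM in cachectic mice and 24.4, 24.5 and 23.5 CPM in normal mice, had a log2 change of 0.04 ± 0.08 (adjusted p = 0.769). These were the narrowest errors among the members. Nfkb2 had 5.01, 4.25 and 2.99 CPM in cachectic mice and 2.88, 3.07 and 3.27 CPM in normal mice (log2 change 0.39 ± 0.19, adjusted p = 0.233). Relb had 4.01, 3.60 and 3.15 CPM in cachectic mice and 3.66, 3.31 and 3.38 CPM in normal mice (log2 change 0.05 ± 0.15, adjusted p = 0.880). For Nfkb2 and Relb alike, cachectic mouse 1 was the highest library and cachectic mouse 3 fell among or below the normal ones. Rel had 2.83, 3.06 and 3.18 CPM in cachectic mice and 3.66, 4.73 and 2.69 CPM in normal mice, a spread among normal mice that covered all cachectic values (log2 change -0.29 ± 0.19, adjusted p = 0.389).

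**Figure D3:**
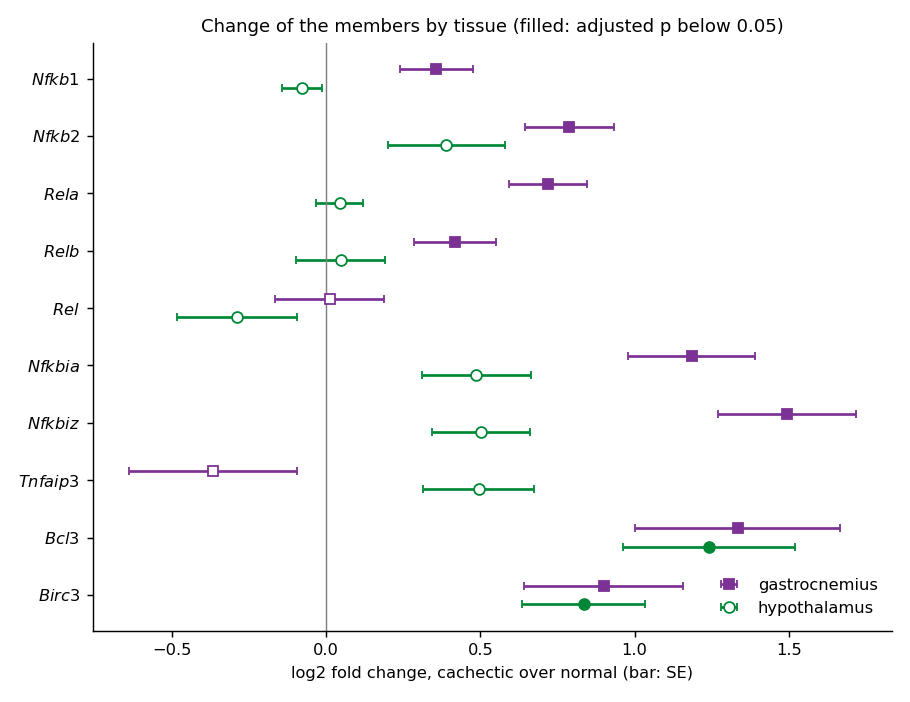
Log2 change of each member, cachectic over normal, in gastrocnemius and hypothalamus, with bars of 1 standard error and filled points where the adjusted p was below 0.05. In the gastrocnemius 8 members are filled, in the hypothalamus Bcl3 and Birc3.

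The difference between the tissues was tested itself, as the interaction of tissue and condition over all 12 libraries, in which 26.4% of 18746 genes were called, 12.4% with the larger log2 change in the gastrocnemius and 14.0% with the larger in the hypothalamus. Of the 10 members, 3 were called, all with the larger log2 change in the gastrocnemius. The difference in log2 change, gastrocnemius minus hypothalamus, was 0.98 ± 0.28 for Nfkbiz (adjusted p = 0.0223), 0.66 ± 0.14 for Rela (adjusted p = 0.00413) and 0.42 ± 0.12 for Nfkb1 (adjusted p = 0.0223). When both tissues were put in 1 fit of 18746 genes, 7810 were called in the gastrocnemius, against 5417 of 14265 when fitted alone. In the hypothalamus 162 were called, against 1575 of 17961. The interaction fit likewise shares 1 spread per gene between the tissues, and its errors and p-values carry that limit. Since both tissues came from the same mice, per the sample titles, the fit was repeated with the mouse as a block. Rela and Nfkbiz kept their calls (adjusted p = 0.0108 and 0.0315), Nfkb1 lost its call (0.0736), and Nfkbia gained one, at a difference of 0.75 (0.0174), against 0.69 ± 0.31 without the block (0.127). Rela was the member called under all 12 alternatives of this comparison. Nfkbiz lost its call without cachectic mouse 1 (0.0875) or normal mouse 1 (0.0685) or 2 (0.0715), and Nfkb1 lost its call without the filter on low counts (0.101) and without any single mouse other than cachectic mouse 3 (0.0526 to 0.0854).

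For the other members a difference between tissues was not shown. Bcl3 and Birc3, the genes that rose in both tissues, had differences of 0.07 ± 0.49 and 0.05 ± 0.36 on the log2 scale (adjusted p = 0.971 and 0.972), values whose errors leave room for a sizeable difference either way. Tnfaip3 had log2 changes of opposite sign, -0.37 in the gastrocnemius and 0.49 in the hypothalamus, and its difference was -0.87 ± 0.34 (adjusted p = 0.0728). It was called with DESeq2 alone among the alternatives, at -0.90 (0.0485). Nfkb2, Relb and Rel had differences of 0.39, 0.35 and 0.28 (adjusted p = 0.258, 0.160 and 0.501).

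Levels of different genes can be set side by side only per length, as TPM, the authors' transcript abundances corrected for length. In cachectic gastrocnemius Nfkbia led at 48.8 ± 11.0 TPM (SD, n = 3), then Rela at 20.6 ± 5.14, Nfkb1 at 12.3 ± 1.61, Nfkb2 at 9.75 ± 2.39 and Relb at 5.91 ± 0.855 TPM. In normal gastrocnemius the same 5 came in the same order, with Nfkbia at 16.3 ± 3.71 TPM (SD, n = 3), Rela at 9.49 ± 1.23, Nfkb1 at 6.91 ± 0.815, Nfkb2 at 4.27 ± 0.0862 and Relb at 3.79 ± 0.731 TPM. Neighbours whose libraries overlapped were Nfkb1 and Nfkb2 in cachectic muscle and Nfkb2 and Relb in normal muscle. Birc3, Bcl3, Nfkbiz, Rel and Tnfaip3 stood at 3.46, 2.43, 1.42, 0.710 and 0.703 TPM in cachectic muscle and at 1.19, 0.863, 0.407, 0.543 and 0.727 TPM in normal muscle. Nfkbiz stood clear of Rel and Tnfaip3 in cachectic muscle, and was last of the 10 in normal muscle, where its libraries overlapped those of Rel.

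The hypothalamus had the same 3 leading genes. Nfkbia, Rela and Nfkb1 had 24.5 ± 4.86, 15.7 ± 1.64 and 9.67 ± 0.146 TPM in cachectic hypothalamus, against 16.7 ± 1.35, 15.9 ± 0.717 and 10.3 ± 0.151 TPM in normal hypothalamus (SD, n = 3 each). Nfkbia and Rela did not overlap in cachectic mice and overlapped in normal mice. The remaining 7 members lay between 0.443 and 2.15 TPM in cachectic hypothalamus and between 0.357 and 1.93 TPM in normal hypothalamus. TPM in the hypothalamus was lowered throughout by Bc1, a short neuronal RNA that took 24.8% to 29.4% of it there and at most 0.0604% in the gastrocnemius. TPM divides by effective length, which for Bc1 was only 1.76 to 4.58 bases in the hypothalamus libraries. Its share of TPM is therefore not a measure of its share of transcripts. For this reason levels are not compared between tissues on that scale alone. Nfkb2 was higher in normal gastrocnemius than in normal hypothalamus on both scales, at 4.27 against 1.02 TPM and 20.6 against 2.02 CPM. The limit set by its overlap with Psd holds for these values too. Nfkb1 turned with the scale, at 6.91 TPM in normal gastrocnemius against 10.3 TPM in normal hypothalamus, and 30.4 CPM against 15.3 CPM when all 12 libraries were scaled together.

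The members also differed in how alike their patterns were. Over the 12 libraries, after the mean of each tissue was subtracted, Pearson's r of log2 CPM was 0.90 between Rela and Relb, 0.86 between Rela and Nfkb1, 0.86 between Rela and Nfkbiz, and 0.84 between Nfkbia and Nfkbiz. These libraries share the difference between cachectic and normal mice, and the correlations carry it, so they are given as a description. Tnfaip3 and Rel stood apart, with at most 0.27 and 0.28 to any other member, and Tnfaip3 had -0.43 with Rela. Among all 15031 genes compared, the one most like Relb was Nfkbie, another IkB gene, at 0.96, but 41 genes reached 0.9 with Relb. The closest gene to Rela was Med25 at 0.99, but 787 genes reached 0.9 with Rela. Kcmf1 was closest to Nfkb1 (0.97), Mcemp1 to Nfkb2 (0.95), Eif6 to Nfkbia (0.96), Malsu1 to Nfkbiz (0.96), Wdr34 to Bcl3 (0.98), Ttc38 to Birc3 (0.95), Wbp4 to Tnfaip3 (0.94) and Nfatc3 to Rel (0.89). At 0.9 or more were 313 genes for Nfkb1, 315 for Nfkbiz, 41 for Nfkbia and 34 for Nfkb2. Bcl3 had 21 such genes, Birc3 20, Tnfaip3 2 and Rel 0.

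Of 20 kinases and adaptors of the canonical route, 3 rose and 1 fell in the gastrocnemius, against 19.6% of all genes called higher and 18.3% lower. The catalytic kinases and their scaffold were among the 16 others there. Chuk had a log2 change of 0.46 ± 0.17 (adjusted p = 0.0595), Ikbkb -0.19 ± 0.13 (0.269) and Ikbkg 0.18 ± 0.12 (0.277) in the gastrocnemius. Chuk was called higher with library totals (0.0258), with TPM (0.0161) and with the replicate number as a block (0.0255). It was also called in the fit of all 12 libraries (0.0148) and without cachectic mouse 2 (0.0317). Irak1, a kinase below the interleukin 1 receptor, rose to 89.0, 80.3 and 82.1 CPM in cachectic gastrocnemius, against 50.3, 50.4 and 54.6 CPM in normal gastrocnemius (log2 change 0.70 ± 0.11, adjusted p = 0.00231). Rnf31, a ligase that builds linear ubiquitin chains, rose as well (log2 change 0.73 ± 0.15, adjusted p = 0.00664), as did the adaptor Myd88 (0.75 ± 0.21, 0.0234), whose call was lost on leaving out cachectic mouse 1 or 3 or normal mouse 1 or 3 (0.0538 to 0.0723). Irak2 fell by 0.61 on the log2 scale (adjusted p = 0.0150), a call lost with library totals, with TPM and without normal mouse 2. In the hypothalamus edgeR called 0 of the 20, where 3.94% of all genes were called higher and 4.83% lower. At an unadjusted p below 0.05, 2 were higher and 3 lower, and DESeq2 and limma on TPM also called 0.

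Of 6 genes of the noncanonical route tested in the gastrocnemius, 3 rose and 0 fell, against 19.6% of all genes called higher and 18.3% lower, with none lower at an unadjusted p below 0.05 either. Map3k14, the kinase that starts the route, had 28.4, 11.0 and 14.6 CPM in cachectic gastrocnemius, against 4.35, 5.24 and 5.97 CPM in normal gastrocnemius. All cachectic libraries were above the normal ones, with a log2 change of 1.80 ± 0.34 (adjusted p = 0.00442). The receptor Tnfrsf12a rose to 80.0, 19.2 and 103.4 CPM in cachectic gastrocnemius, against 10.0, 10.7 and 16.2 CPM in normal gastrocnemius (log2 change 2.45 ± 0.53, adjusted p = 0.00833), and Ltbr, the lymphotoxin beta receptor, rose by 0.48 ± 0.11 (0.00971). In the hypothalamus 0 of 7 rose and 1 fell, where 3.94% of all genes were called higher and 4.83% lower. At an unadjusted p below 0.05, 1 was higher and 2 were lower, and DESeq2 also called 0 higher. The gene that fell was Traf3, an adaptor that keeps the Map3k14 kinase low, by 0.28 on the log2 scale (adjusted p = 0.0106), a call lost without normal mouse 2 (0.0610), on TPM (0.0993) and in the single fit of all 12 libraries (0.582). The differences between tissues were called for Map3k14 (1.99 ± 0.41, adjusted p = 0.00351), Tnfrsf12a (3.09 ± 0.69, 0.00531) and Ltbr (0.62 ± 0.13, 0.00329).

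Of the receptors of the canonical route, 2 of 8 tested rose in the gastrocnemius, where 19.6% of all genes were called higher, and 2 of 9 in the hypothalamus, where 3.94% were, Tnfrsf1a and Il1r1 in both. Il1r1, the interleukin 1 receptor, had 8.09, 8.54 and 8.60 CPM in cachectic hypothalamus, against 2.98, 2.51 and 2.43 CPM in normal hypothalamus. That rise of 3.18-fold (log2 change 1.67 ± 0.12, adjusted p = 6.81e-05) was larger than its log2 change in the gastrocnemius (0.58 ± 0.16, 0.0230), with a difference of -1.10 ± 0.20 (0.00142). Tnfrsf1a, the main tumour necrosis factor receptor, rose by 0.58 ± 0.12 in the gastrocnemius (adjusted p = 0.00776) and by 0.43 ± 0.11 in the hypothalamus (0.0378). Il1r1 lost its gastrocnemius call on leaving out cachectic mouse 2 or normal mouse 1 or 3 (0.0554 to 0.0755). Tnfrsf1a lost its hypothalamic call on leaving out cachectic mouse 1 or 2 or normal mouse 1 or 2 (0.0832 to 0.120). The same call was lost on TPM, in the single fit and with the replicate number as a block (0.0749). Of 10 ligands, 6 were under the minimum count in the gastrocnemius and 4 in the hypothalamus, among them Tnf, at 0.191 CPM or less in every library. Il1b was the ligand called, 1 of 4 tested in the gastrocnemius and 1 of 6 in the hypothalamus. Of all genes, 19.6% and 3.94% were called higher there. Il1b had 1.57, 0.891 and 0.837 CPM in cachectic gastrocnemius, against 0.0365, 0.0733 and 0.0355 CPM in normal gastrocnemius (adjusted p = 6.64e-04). In the hypothalamus Il1b had 0.716, 0.613 and 0.515 CPM in cachectic mice and 0.102, 0.148 and 0.0363 CPM in normal mice (adjusted p = 0.00590). In both tissues it passed the count minimum only through its cachectic libraries.

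The next lists were the other IkB genes and the other feedback inhibitors. Nfkbib, which encodes IkB beta, had 68.0, 66.9 and 56.7 CPM in cachectic gastrocnemius, against 19.8, 20.8 and 20.5 CPM in normal gastrocnemius, a log2 change of 1.65 ± 0.12 (adjusted p = 1.51e-04). In the hypothalamus it had 21.2, 18.8 and 18.9 CPM in cachectic mice and 19.1, 20.0 and 19.5 CPM in normal mice (log2 change 0.01 ± 0.07, adjusted p = 0.967), and the difference between tissues was 1.62 ± 0.13 (7.86e-06). With Nfkbil1 (log2 change 0.90 ± 0.17, adjusted p = 0.00462), 2 of 3 tested IkB genes rose in muscle, where 19.6% of all genes were called higher. Nfkbie had 0.69 ± 0.24 and missed the threshold (0.0532), but was called with library totals (0.0294), on TPM (0.0154), with the minimum of 1 CPM (0.0383) and in the single fit (0.0144). In the hypothalamus edgeR called 0 of 5, where 3.94% of all genes were called higher and 4.83% lower. At an unadjusted p below 0.05, 1 was higher and 1 lower, and DESeq2 called 1 higher. Among 15 other feedback and ubiquitin-editing inhibitors, 5 rose and 1 fell in the gastrocnemius and 9 did not pass the test, against 19.6% of all genes called higher and 18.3% lower. Otulin, which cuts linear ubiquitin chains, rose by 1.88 ± 0.34 on the log2 scale (adjusted p = 0.00393), and Tnip2 and Tax1bp1, partners of the Tnfaip3 product, by 1.15 ± 0.17 (0.00182) and 0.70 ± 0.15 (0.00689). Rnf11, another partner of that enzyme, fell to 64.5, 82.2 and 75.6 CPM in cachectic gastrocnemius, against 187.3, 180.6 and 152.8 CPM in normal gastrocnemius (log2 change -1.23 ± 0.14, adjusted p = 6.90e-04). Tnip1 and Cyld had log2 changes of 0.32 ± 0.19 (0.210) and 0.34 ± 0.20 (0.207). Both were called on TPM (0.0300 and 0.0445), Tnip1 also with library totals (0.0452) and without cachectic mouse 3 (0.0146), and Cyld also without cachectic mouse 2 (0.0361). In the hypothalamus, where 3.94% of all genes were called higher and 4.83% lower, 1 of 15 rose, Irak3, an inhibitor of interleukin 1 signalling (0.96 ± 0.22, 0.0247), and 1 fell, Pdlim2, a ligase for nuclear RelA (-0.72 ± 0.15, 0.0140); without normal mouse 2 both calls were lost (0.0810 and 0.0595), as they were on TPM (0.0860 and 0.0587) and in the single fit (0.175 and 0.239). Irak3 also lost its call with DESeq2 (0.0645), with the replicate number as a block (0.0543) and without any other single mouse except cachectic mouse 2.

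**Figure D4:**
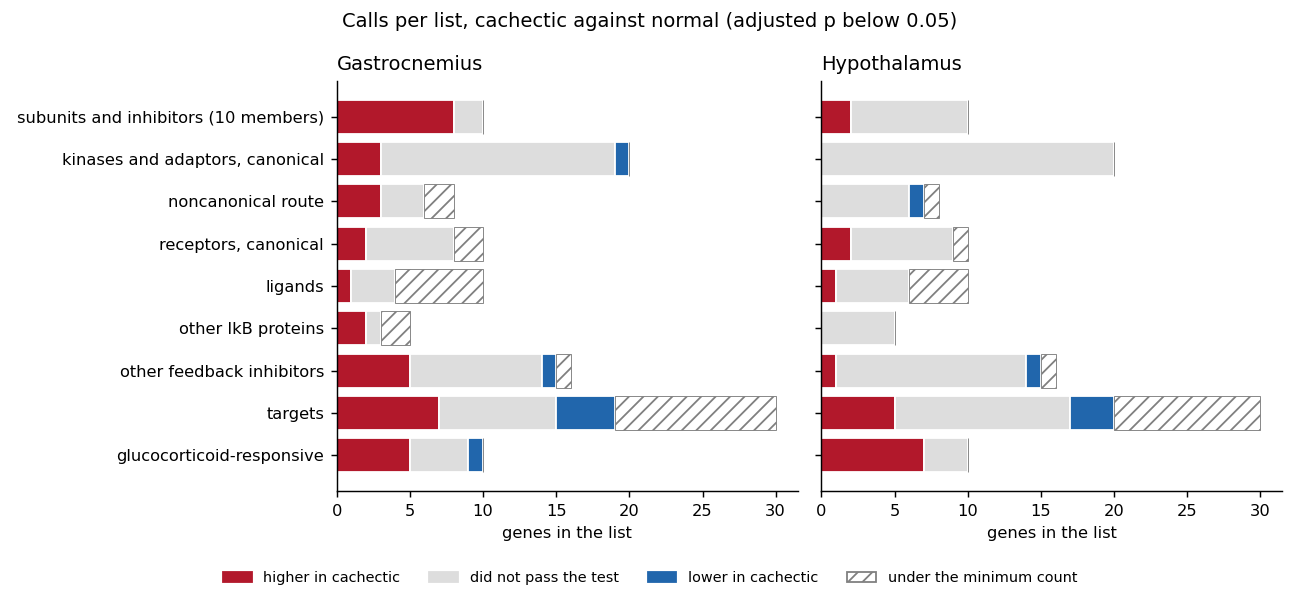
Number of genes called higher and lower in cachectic mice, and number tested without a call, for the members, the NF-kB pathway lists and a glucocorticoid list in each tissue, with hatching for genes under the minimum count. The members have 8 of 10 genes called higher in the gastrocnemius and 2 of 10 in the hypothalamus.

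Of the genes often used as NF-kB targets, 7 of 19 tested in the gastrocnemius rose and 4 fell, with a median log2 change of 0.12, against 19.6% of all genes called higher and 18.3% lower. Of 20 tested in the hypothalamus 5 rose and 3 fell, also with a median of 0.12, against 3.94% called higher and 4.83% lower. Lcn2, which encodes the iron-scavenging protein lipocalin, had 97.0, 19.7 and 69.3 CPM in cachectic gastrocnemius, against 0.584, 0.440 and 0.675 CPM in normal gastrocnemius (adjusted p = 3.58e-04). In the hypothalamus Lcn2 had 37.5, 15.1 and 27.2 CPM in cachectic mice and 0.0678, 0.0591 and 0.109 CPM in normal mice (adjusted p = 1.81e-05), again passing the count minimum only through the cachectic libraries. As with Nfkbia, cachectic mouse 2 had the lowest Lcn2 of the cachectic mice in both tissues. Selp, an adhesion molecule of activated endothelium, rose by 3.06 ± 0.33 on the log2 scale in muscle (5.32e-04), and Icam1, another adhesion molecule, rose by 0.88 ± 0.18 (0.00637) in muscle and 1.78 ± 0.19 (6.06e-04) in the hypothalamus. Saa3, an acute-phase gene, had 2.54, 0.649 and 2.86 CPM in cachectic hypothalamus and 0.0339, 0.0295 and 0 CPM in normal hypothalamus (adjusted p = 0.00160), and passed the count minimum only through its cachectic libraries. Gadd45b rose by 1.40 ± 0.20 in muscle (0.00136) and fell in the hypothalamus (-0.77 ± 0.21, 0.0453), with a difference of 2.16 ± 0.30 (2.76e-04); its hypothalamic call was lost when any one of 5 of the 6 mice was left out (0.0570 to 0.175). Ccnd1 fell in both, by 2.04 ± 0.42 on the log2 scale in muscle (0.00643) and by 0.29 ± 0.06 in the hypothalamus (0.0211). The adhesion molecule Vcam1 also fell in the hypothalamus (-0.39 ± 0.08, 0.0190). Both hypothalamic calls were lost without cachectic mouse 1 or 3 or normal mouse 2 (0.0670 to 0.0746), on TPM and in the single fit. Sod2 (-0.83 ± 0.14, 0.00292) and Cflar (-0.47 ± 0.12, 0.0176) fell in muscle, calls that were lost on TPM (0.199 and 0.187), that of Cflar also with library totals (0.206) and without normal mouse 1 (0.0661) or 3 (0.0578).

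Markers of some other cells moved with these groups. The 12 neutrophil genes summed to 151.8, 30.4 and 22.6 CPM in cachectic gastrocnemius, against 0.584 to 0.960 CPM in normal gastrocnemius, with Ly6g, Camp, Ltf and Elane at 0 in every normal library. The 7 genes tested were all called higher, against 19.6% of all genes. However, all 7 had 13 counts or fewer in each normal library and passed the count minimum through the cachectic libraries. Their calls therefore add nothing to the sums. In the hypothalamus the same sum was 102.5, 35.3 and 14.1 CPM in cachectic mice and 4.74 to 6.17 CPM in normal mice, with Ly6g and Cxcr2 at 0 in the normal libraries. Of 8 tested, 6 were called higher, against 3.94% of all genes. These 6 again passed the count minimum through the cachectic libraries. Csf3r, which made up most of the sum in normal mice, was not called. The order of the 3 cachectic mice in the hypothalamic neutrophil sum was also their order in Bcl3, Nfkb2, Rela and Relb there, the reverse of their order in Rel, and not their order in the other 5 members. In the gastrocnemius the order in the sum was shared by Nfkb1 and Rela, and by Rel and Tnfaip3, which did not pass the test there. The share of all genes with such an order was not counted, so no conclusion is drawn from these orders. Without cachectic mouse 1, which had the highest sum in both tissues, the gastrocnemius log2 changes were 0.69 for Nfkb2, 0.67 for Rela, 1.18 for Nfkbia and 1.46 for Nfkbiz, and these 4 and Bcl3 remained called (adjusted p = 0.00744 to 0.0438). In the hypothalamus no member was called without that mouse, and over all genes 711 were called, against 1575 with it. The other cachectic mice still had neutrophil sums above every normal library in both tissues. Leaving out that mouse therefore cannot tell the part of neutrophils from other differences between the groups. Macrophage genes summed to 59.2 to 186.5 CPM in cachectic gastrocnemius, overlapping the 77.5 to 91.9 CPM of normal gastrocnemius. Of these, 2 of 9 tested rose, near the 19.6% of all genes called higher. Of 6 fibroblast genes tested, 5 fell, against 18.3% of all genes called lower. The 6 summed to 81.3 to 137.6 CPM in cachectic gastrocnemius and 527 to 946.3 CPM in normal gastrocnemius. The sum includes the collagen genes Col1a1 (log2 change -4.08 ± 0.39) and Col3a1 (-2.93 ± 0.30), while Pdgfra did not pass the test (-0.02 ± 0.14). In the hypothalamus, the genes of the macrophage list summed to 126.2 to 150.5 CPM in cachectic mice and 112.1 to 120.9 CPM in normal mice. Whether macrophages or microglia carried these transcripts there was not tested. Of 10 tested, Lyz2, C1qa and C1qb were called higher and 7 did not pass the test. Endothelial genes summed to 98.4 to 119.1 CPM in cachectic mice and 78.4 to 89.2 CPM in normal mice. Of 8 tested, Vwf (log2 change 2.58 ± 0.14) and Pecam1 (0.41 ± 0.10) were called higher. Kdr was called lower (-0.41 ± 0.10) and 5 did not pass. Of all genes there, 3.94% were called higher and 4.83% lower. Microglia genes summed to 120.5 to 163.9 CPM in cachectic mice and 149.7 to 158.8 CPM in normal mice. The part of these cells in the changes of the members was not tested.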

How the data were processed

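The authors trimmed reads with Trim Galore 0.6.6 and used STAR 2.7.9a and RSEM 1.3.3 with GRCm38, per the submitters' processing notes; libraries were made with a directional kit, per the labels' protocols. The annotation release and strand setting are not given in the sources used here. The authors deposited expected counts, TPM and FPKM per gene; FPKM was not used. Names and coordinates came from GENCODE M21, which named 52135 of 55416 identifiers, holding 99.6481% of counts. Expected counts were rounded and tested with edgeR 4.0.16 in R 4.3.3 (filterByExpr, TMM, glmQLFit, glmQLFTest, Benjamini-Hochberg), 3 against 3 mice in each tissue, and as a tissue by condition interaction over 12 libraries. Alternatives were library totals, DESeq2 1.42.0, limma 3.58.1 on log2(TPM + 0.5), no count filter, at least 1 CPM in 3 libraries, a replicate block, a single fit of all libraries, and leaving out each library. The steps were tested on simulated data.

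Replicates were separate mice, per the sample titles, and chi-square per gene between replicates was at least 5.86, so each library counted as 1 replicate. The titles also give both tissues of a mouse the same number, which pairs the tissues; deviations of the 2 tissues of a mouse correlated at -0.02 to 0.07 in cachectic mice and 0.01 to 0.09 in normal mice. The 10 members, the pathway lists and the markers were chosen with earlier results of these data known. Other genes named are up to 3 called in each direction per list and tissue with the smallest p, plus 10 fixed genes. Icam1 in the gastrocnemius was picked after its values were seen. So were Nfkbia, Nfkb2, Lcn2, Cebpd and Fkbp5 in the remarks on single mice, and the single genes named from the cell type markers. Likeness used log2(CPM + 0.1).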

Additional observations from a re-analysis of the deposited data

Results flagged for a closer look

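The changes of Nfkbiz, Rela and Nfkb1 were called as differing between the tissues, by the test of the interaction over all 12 libraries. That test shares 1 spread per gene between the tissues. The log2 change in the gastrocnemius exceeded that in the hypothalamus by 0.98 for Nfkbiz, by 0.66 for Rela and by 0.42 for Nfkb1. With the mouse as a block the values were 0.96, 0.66 and 0.42, and the adjusted p was 0.0315, 0.0108 and 0.0736, so that Nfkb1 was no longer called.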

How the results depend on the processing

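Depth limits the low members most: Bcl3 rested on 19 to 22 counts in normal hypothalamus. In the gastrocnemius, 4 to 7 members were called on leaving out 1 library (4 without normal mouse 1, 5 without cachectic mouse 1 or normal mouse 2 or 3), and 6 to 8 under the other alternatives; over all genes 3547 to 5450 were called on leaving out 1 library, against 5417, lowest without normal mouse 1. In the hypothalamus, 0 members were called in a single fit of all 12 libraries (162 genes called), 0 with limma on TPM (520 genes), 4 without the count filter (Nfkbia and Nfkbiz added, 2598 genes) and 1 with the replicate block (1111 genes). Leaving out 1 library there gave 0 to 3 members and 576 to 1266 genes, against 2 and 1575. No member was called without cachectic mouse 1 (711 genes), and 1041 genes were called without cachectic mouse 2, 801 without cachectic mouse 3 and 576 without normal mouse 2. For the difference between tissues, limma on TPM called 5 members, with Nfkb2 and Nfkbia added, and leaving out 1 mouse gave 1 to 3 members and 3204 to 4604 genes, against 3 and 4952, with 1 member without cachectic mouse 1 or normal mouse 1 (3223 genes) or 2 (3204 genes). The cause of these changes was not tested.

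Signs turned for values near 0. Rel in the gastrocnemius was -0.0031 with the minimum of 1 CPM and -0.071 to 0.13 on leaving out 1 library; Rela in the hypothalamus was -0.024 on TPM and -0.014 to 0.12 on leaving out 1 library; Relb there ran from -0.041 to 0.15. On leaving out 1 mouse, the differences between tissues ran from -0.20 to 0.61 for Bcl3 and from -0.21 to 0.29 for Birc3; on TPM they were 0.52 and 0.72. Of 130 member values under alternatives in the gastrocnemius, 21 lost the call, and of 130 in the hypothalamus 12 lost and 4 gained it.

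The share of calls higher in cachectic mice was 45.0% in the hypothalamus, 57.7% with library totals and 47.1% with TPM, and the share larger in the gastrocnemius was 46.9%, 66.5% and 82.5%. Replicate numbers shared by cachectic and normal mice belong to different animals, and for that reason were not treated as pairs. Libraries with the same number correlated at -0.06 to 0.26 in the gastrocnemius, against -0.25 to 0.10 for different numbers. In the hypothalamus the same-number values were -0.10 to 0.00. These correlations do not by themselves settle whether a number marks a shared batch. With that number as a block, 5721 genes were called in the gastrocnemius and 7 members, Relb being lost (adjusted p = 0.0503), and in the hypothalamus Birc3 was lost (0.0612).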

Other observations

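Genes that respond to glucocorticoids, hormones whose receptor restrains NF-kB, were counted as well. Of 10 tested, 5 rose and 1 fell in the gastrocnemius, against 19.6% of all genes called higher and 18.3% lower. In the hypothalamus 7 rose and 0 fell, against 3.94% called higher, and 1 was lower at an unadjusted p below 0.05. The hypothalamic count was 2 in the single fit of all 12 libraries and 4 on leaving out cachectic mouse 1 or normal mouse 2. Cebpd, a transcription factor of the acute-phase response, had 307.9, 182.1 and 279 CPM in cachectic gastrocnemius, against 12.1, 9.49 and 12.2 CPM in normal gastrocnemius (log2 change 4.51 ± 0.24, adjusted p = 8.79e-05). In the hypothalamus Cebpd had 11.5, 8.40 and 10.0 CPM in cachectic mice and 3.59, 3.93 and 3.34 CPM in normal mice (log2 change 1.46 ± 0.14, adjusted p = 3.71e-04). Fkbp5, a chaperone partner of the receptor, had 277.4, 147.3 and 230.8 CPM in cachectic gastrocnemius, against 24.3, 28.0 and 33.9 CPM in normal gastrocnemius (log2 change 2.93 ± 0.25, adjusted p = 2.59e-04). In the hypothalamus its log2 change was 1.16 ± 0.12 (adjusted p = 5.03e-04). Ddit4 rose in muscle (3.23 ± 0.41, 9.44e-04) and Zbtb16 in the hypothalamus (1.22 ± 0.20, 0.00627), the second lost in a single fit of all 12 libraries (0.321). The receptor gene itself, Nr3c1, fell in muscle (-0.61 ± 0.15, 0.0140), a call lost on TPM (0.279) and without normal mouse 2 (0.0569).

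Cachectic mouse 2 had the lowest Nfkbia, Lcn2, Cebpd and Fkbp5 of the 3 cachectic mice in both tissues. These genes were picked for this remark after their values were seen, and the share of all genes lowest in that mouse was not counted. Some members went the other way: Bcl3 in the gastrocnemius (3.48 CPM) and Nfkb1 in the hypothalamus (22.5 CPM) were highest in that mouse among cachectic mice.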
